A study of Mus musculus with 51 samples.

Results

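Effector memory (EM) CD8+ T cells of the mouse spleen were compared with central memory (CM) CD8+ T cells of the same organ. The comparison rests on 6 libraries, 3 sorted as EM and 3 sorted as CM, of 43 libraries in the table of untreated samples and 51 in the whole study. They were picked by the subset named in their titles, and no measured value entered the choice. EM and CM cells were both purified by fluorescence-activated sorting from spleens labelled as control and as untreated, and 3 libraries of naive CD8+ T cells from such spleens served as an outside level for both. The other 34 libraries of the table hold CD8+ T cells sorted from AT3-OVA mouse mammary tumors by the surface proteins CD103 and CD69. AT3-OVA is a mouse mammary tumor line that carries ovalbumin as a model antigen.

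Several limits of these groups as a model come from the labels. The spleen libraries carry the same cell line entry and the same cell type entry, infiltrating T cells of the tumor, as the tumor libraries, so the labels do not settle whether the donor mice bore tumors. The surface markers that gated EM, CM and naive cells, and the strain, age and genotype of the mice, are not given in the sources used here. Nothing in the labels says that replicates came from separate animals, so the spread between libraries may be technical. Unless a fit of fewer libraries is named, each SE and p-value below rests on within-group spread pooled over all 43 libraries. Most of these are tumor libraries, so an SE is not the spread of the EM and CM replicates alone.

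Memory CD8+ T cells remain after an immune response and answer quickly when the same antigen returns. Central memory cells carry the homing receptor CCR7, pass through lymph nodes and divide well when recalled. Effector memory cells lack that receptor, circulate through blood, spleen red pulp and peripheral tissue, and are closer to killing and to cytokine release. The transcription factors T-bet, ZEB2, BLIMP1 and ID2 are known to favor the effector side, while TCF1, LEF1 and FOXO1 favor the long-lived side.

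The deposited values, normalized in a way that the labels do not describe, were taken to be on a log2 scale, so that a difference of 1 is read as a doubling. The gene means ran from -28.04 to 39.37 across the 43 libraries, so a gene's own level is no measure of its abundance, and a level can be compared between libraries of 1 gene but not between genes. Read depth per library is unknown. The root mean square difference between EM and CM means over all genes was 0.646, whereas pairs of replicate libraries differed by 0.197 to 0.642 within EM, by 0.219 to 0.504 within CM and by 0.216 to 0.585 within naive cells. Replicate 2 of EM was the library farthest from the other EM libraries. Values of single libraries are given below in the order of replicates 1, 2 and 3, and each difference is EM minus CM.

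The genes that mark the label were both far higher in EM cells. Zeb2, which encodes a zinc finger repressor that acts with T-bet in terminal effector differentiation (chr2:44983632-45117395, minus strand, GRCm38), had values of 14.50, 14.38 and 14.59 in EM cells, 11.04, 11.25 and 11.37 in CM cells and 10.02, 9.92 and 9.93 in naive cells. The EM libraries lay above every CM and naive library, and the difference was 3.27 ± 0.26 (SE, adjusted p = 1.1e-07) by limma with Benjamini-Hochberg adjustment over 10560 genes, with 3 libraries in each group. Cx3cr1, the receptor for the chemokine fractalkine and a graded surface marker of effector differentiation (chr9:119901616-120069879, minus strand), had values of 20.47, 20.24 and 20.66 in EM cells, 16.95, 16.99 and 16.98 in CM cells and 16.24, 16.04 and 16.09 in naive cells. The 3 CM libraries were nearly equal and sat just above the naive ones, and the difference was 3.48 ± 0.30 (SE, adjusted p = 3.32e-07). In a bulk library of sorted cells, fewer cells with a transcript and less transcript per cell cannot be told apart.

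The gene of the lymph node homing receptor CCR7 separated the groups less. Ccr7 had values of 0.30, 0.94 and 0.23 in EM cells, 0.70, 1.01 and 1.02 in CM cells and 3.16, 2.57 and 2.82 in naive cells. Its EM and CM libraries overlapped, both lay below the naive libraries, and the difference of -0.42 ± 0.49 (SE, adjusted p = 0.612) missed the threshold of 0.05 used here.

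Other genes of the memory definition gave a mixed picture. Il7r, the receptor chain for the survival cytokine interleukin 7, had values of 5.16, 5.19 and 5.27 in EM cells, against 5.62, 5.77 and 5.82 in CM cells, a difference of -0.53 (adjusted p = 0.26). Cd44, a hyaluronan receptor of all antigen-experienced T cells, had values of 3.20, 3.12 and 3.16 in EM cells, 2.26, 2.59 and 2.82 in CM cells and -0.39, -0.10 and -0.35 in naive cells. Both memory subsets were above naive cells in Cd44, and they differed from each other by 0.60 (adjusted p = 0.0821), which passed with design-based degrees of freedom (0.0145), after quantile normalization (0.00527) and in fits of 9 or 6 spleen libraries (0.0143 and 0.027). Il7r passed only in the fits of 9 or 6 spleen libraries (0.00262 and 0.00568) among the alternatives run. Il2rb, the shared receptor chain for interleukin 2 and interleukin 15, was lower in EM cells, at a difference of -0.61 (adjusted p = 0.0367), a call lost without EM replicate 1, EM replicate 2, EM replicate 3, CM replicate 2 and CM replicate 3 (adjusted p up to 0.131). Klrg1 was not analysed here, because no gene of that name was among the 10560 measured.

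**Figure D1:**
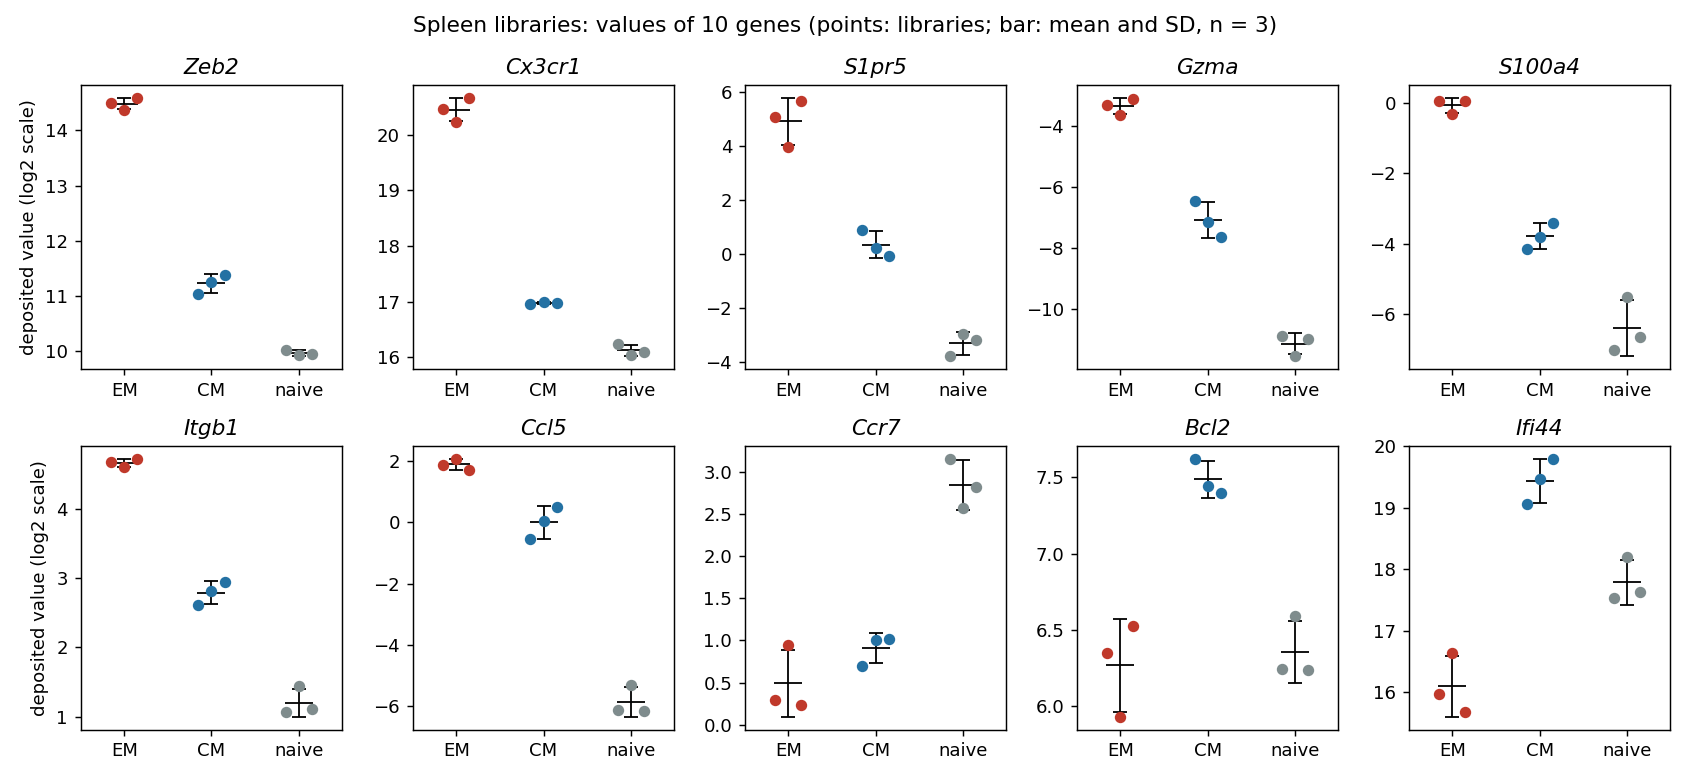
Deposited values (vertical axes, log2 scale, 1 panel per gene) of 10 genes in the EM, CM and naive libraries of the spleen; points are libraries, and bars give the mean and SD of 3. Zeb2, Cx3cr1, S1pr5, Gzma, S100a4, Itgb1 and Ccl5 lie higher in every EM library than in any CM library, Bcl2 and Ifi44 lie lower, and Ccr7 overlaps.

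Promoters of 6 genes are shown, and both markers of the label are among them. The others were picked by size of difference among genes that have an entry: Miat and Esm1 (higher in EM) and C1qb and Krt8 (lower in EM). Zeb2 and Cx3cr1 were added after their values were seen. Each run goes from 250 bases before to 50 bases after a start site that RefSeq lists on GRCm38.p6, 5′ to 3′, and capitals mark matches on either strand to 4 short motifs. The motifs were CTTTGA of TCF/LEF factors, GGTGTG of T-box factors, CAGGTG of ZEB factors and CCACCC of KLF factors; a T-box match can overlap a ZEB match. Zeb2 has 4 entries, of which the one listed first is printed.
Zeb2 promoter, chr2:45117393-45117692, minus strand: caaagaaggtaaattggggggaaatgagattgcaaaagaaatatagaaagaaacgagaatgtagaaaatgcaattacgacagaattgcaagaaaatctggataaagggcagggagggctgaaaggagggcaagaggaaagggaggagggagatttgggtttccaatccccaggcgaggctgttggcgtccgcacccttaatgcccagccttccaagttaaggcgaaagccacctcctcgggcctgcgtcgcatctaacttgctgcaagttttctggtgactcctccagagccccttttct
Cx3cr1 promoter, chr9:120068247-120068546, minus strand: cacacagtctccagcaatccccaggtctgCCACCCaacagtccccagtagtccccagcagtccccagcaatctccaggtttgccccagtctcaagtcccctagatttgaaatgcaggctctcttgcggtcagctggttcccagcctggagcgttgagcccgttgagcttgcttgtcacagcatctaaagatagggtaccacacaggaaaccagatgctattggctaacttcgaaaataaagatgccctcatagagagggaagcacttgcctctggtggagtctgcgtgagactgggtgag
Miat promoter, chr5:112228899-112229198, minus strand: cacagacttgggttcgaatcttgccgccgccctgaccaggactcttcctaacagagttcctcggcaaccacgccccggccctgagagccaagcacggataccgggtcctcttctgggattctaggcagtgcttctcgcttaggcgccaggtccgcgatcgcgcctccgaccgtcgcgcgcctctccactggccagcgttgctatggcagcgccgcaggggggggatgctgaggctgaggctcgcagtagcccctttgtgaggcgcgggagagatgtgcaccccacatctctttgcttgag
Esm1 promoter, chr13:113209409-113209708, plus strand: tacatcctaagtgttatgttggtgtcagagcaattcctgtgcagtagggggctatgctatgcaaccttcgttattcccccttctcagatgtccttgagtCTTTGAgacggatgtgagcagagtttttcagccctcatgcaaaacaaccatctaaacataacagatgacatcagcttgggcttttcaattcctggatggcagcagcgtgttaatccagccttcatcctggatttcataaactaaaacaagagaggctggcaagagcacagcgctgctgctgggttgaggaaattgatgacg
C1qb promoter, chr4:136886151-136886450, minus strand: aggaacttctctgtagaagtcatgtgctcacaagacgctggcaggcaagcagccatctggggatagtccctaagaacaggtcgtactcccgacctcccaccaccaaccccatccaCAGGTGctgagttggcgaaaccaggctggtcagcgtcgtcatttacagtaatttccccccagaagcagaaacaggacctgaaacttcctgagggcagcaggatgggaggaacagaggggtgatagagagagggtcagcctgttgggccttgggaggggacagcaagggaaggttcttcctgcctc
Krt8 promoter, chr15:102004293-102004592, minus strand: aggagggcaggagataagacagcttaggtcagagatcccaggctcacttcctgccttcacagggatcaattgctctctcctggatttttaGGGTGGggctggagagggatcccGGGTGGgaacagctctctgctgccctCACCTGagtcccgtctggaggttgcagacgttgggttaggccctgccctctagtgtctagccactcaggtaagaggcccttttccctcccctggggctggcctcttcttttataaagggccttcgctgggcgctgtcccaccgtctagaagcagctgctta
The Zeb2 and Miat windows hold none of the 4 motifs. Cx3cr1 has a KLF match at position -221 from the start, Esm1 a TCF/LEF match at -151 and C1qb a ZEB match at -135. Krt8 has a ZEB match at -111 and KLF matches at -160 and -137. The motifs were about as common among genes that differed as among all 7684 genes with a promoter entry. TCF/LEF letters stood in 13.4% of 641 promoters of genes higher in EM and 12.5% of 529 promoters of genes lower in EM, against 11.6% of all. The T-box shares were 16.8% and 15.9% against 17.1%, the ZEB shares 16.1% and 19.3% against 16.8%, and the KLF shares 37.3% and 37.2% against 36.1%. A match is a description of the letters and not a bound site.

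Across the table, 1626 of 10560 genes (15.4%) differed between EM and CM cells at an adjusted p below 0.05. Of these, 867 (8.21% of the table) were higher in EM and 759 (7.19%) were lower, and 641 differed by more than 1 on the log2 scale, 295 higher and 346 lower. The median difference over all genes was 0.01. The libraries of the groups did not overlap for 2874 genes that were higher in EM (27.2%) and 2583 that were lower (24.5%), or 51.7% of the table in all, so a lack of overlap alone carries little weight here. The number called fell to 924 without EM replicate 1, 780 without EM replicate 3, 1007 without CM replicate 2 and 951 without CM replicate 3, and it was 3166 with design-based degrees of freedom, 3239 after quantile normalization, 3830 in a fit of the 9 spleen libraries and 3696 in a fit of the 6 EM and CM libraries.

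**Figure D2:**
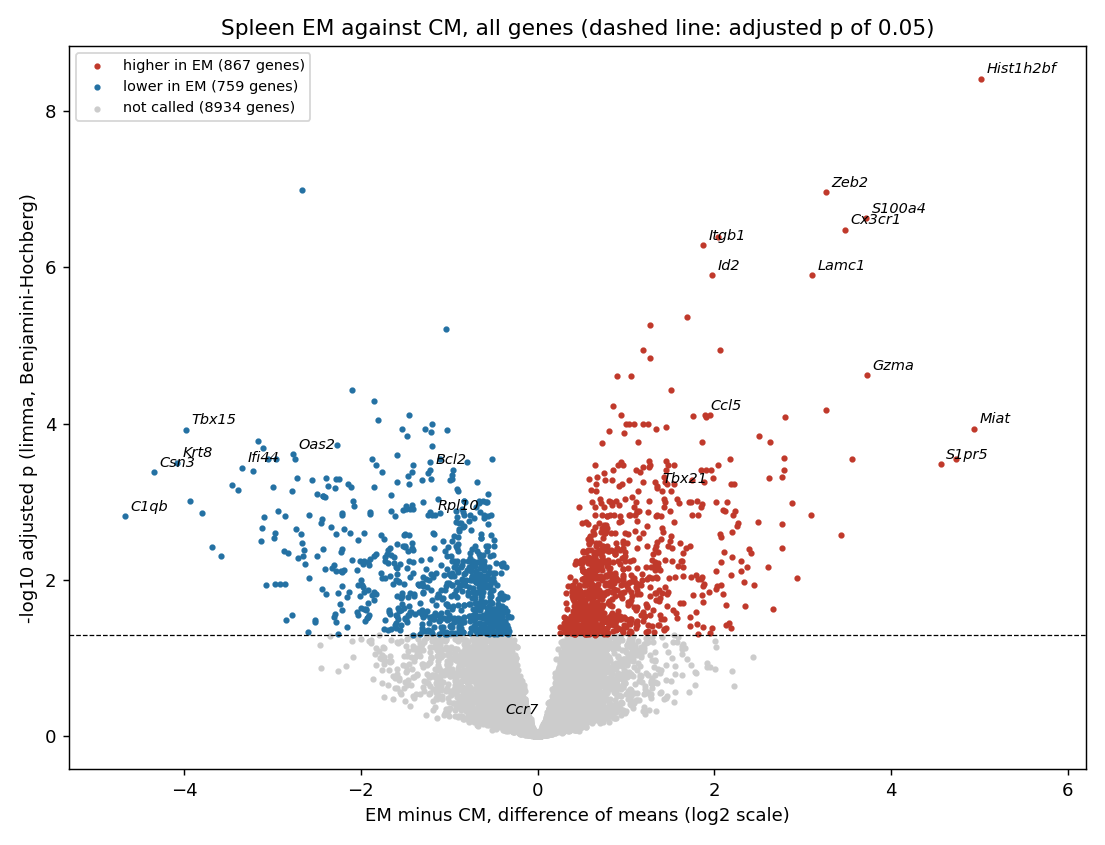
EM minus CM difference of means (horizontal axis, log2 scale) against −log10 of the limma adjusted p (vertical axis) for 10560 genes, with the 867 genes higher in EM, the 759 lower in EM and the genes not called in separate colors. Hist1h2bf, Zeb2, S100a4 and Cx3cr1 stand at the top right, while Ccr7 lies under the dashed threshold line.

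The 10 largest differences in favor of EM included genes of migration, killing and calcium binding. Hist1h2bf, a replication-dependent histone H2B gene (chr13:23573736-23574196, minus strand), came first, with values of -17.62, -17.67 and -17.59 in EM cells, -22.99, -22.62 and -22.33 in CM cells and -21.65, -20.94 and -21.65 in naive cells, a difference of 5.02 ± 0.32 (SE, adjusted p = 3.88e-09). Histone H2B genes are near-identical copies, so which copy the tags came from is uncertain. Miat, a long noncoding RNA gene (chr5:112213228-112229395, minus strand), had values of 24.77, 23.31 and 25.23 in EM cells, against 19.33, 19.43 and 19.73 in CM cells, a difference of 4.94 (adjusted p = 0.000116). Esm1, which encodes a secreted proteoglycan best known from endothelium, had values of 8.38, 8.21 and 8.75 in EM cells, against 3.46, 3.75 and 3.92 in CM cells, a difference of 4.74 (adjusted p = 0.000283). Esm1 (chr13:113209659-113218098, plus strand) lies inside the annotated span of Gzmk (chr13:113171608-113225908, minus strand), the granzyme K gene, which was also higher in EM. The strand setting of the counting is unknown, so whether tags counted for Esm1 came from Gzmk cannot be told. No EM library of Hist1h2bf, Miat or Esm1 overlapped a CM library.

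S1pr5 and Gzma were also among the largest. S1pr5 encodes a sphingosine-1-phosphate receptor that carries lymphocytes out of tissue (chr9:21242912-21248443, minus strand), and its values were 5.09, 3.97 and 5.68 in EM cells, 0.90, 0.23 and -0.07 in CM cells and -3.77, -2.96 and -3.18 in naive cells. The 3 groups were ordered without overlap, and EM exceeded CM by 4.56 ± 0.71 (SE, adjusted p = 0.000328). Gzma, the gene of the granule protease granzyme A (chr13:113093825-113100981, minus strand), had values of -3.30, -3.64 and -3.10 in EM cells, -6.45, -7.14 and -7.63 in CM cells and -10.89, -11.55 and -10.99 in naive cells. It had the same order of groups and a difference of 3.73 ± 0.44 (SE, adjusted p = 2.39e-05).

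S100a4, a calcium-binding protein gene used as a memory marker (chr3:90603771-90606045, plus strand), had values of 0.06, -0.32 and 0.04 in EM cells, -4.15, -3.81 and -3.42 in CM cells and -7.04, -5.52 and -6.67 in naive cells, again with no overlap between the groups and a difference of 3.72 ± 0.31 (SE, adjusted p = 2.37e-07). Beside Cx3cr1 and Zeb2, the 10 were completed by Ret, a receptor tyrosine kinase gene, with a difference of 3.56 (adjusted p = 0.000281), and Nhsl2, with 3.44 (adjusted p = 0.00269). All 10 kept their calls when any 1 of the 6 libraries was left out.

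Most effector transcription factors were higher in EM. Of 18 measured factors, 11 (61.1%, beside 8.21% of all genes) were higher in EM and none was lower by limma (1 at an unadjusted p below 0.05), with a median difference of 1.12 beside 0.01 for all genes. The count was 11 in each fit that left out 1 library. After Zeb2, the largest differences were those of Maf (difference 2.15, adjusted p = 0.00101), which encodes c-MAF, Rora (difference 2.04, adjusted p = 4.12e-07), a nuclear receptor gene, and Bhlhe40 (difference 2.04, adjusted p = 0.000338), a basic helix-loop-helix repressor gene of effector and resident cells. Rora had values of 7.47, 7.51 and 7.54 in EM cells, 5.51, 5.48 and 5.39 in CM cells and 6.10, 5.46 and 5.90 in naive cells, so that the EM libraries lay above both other groups, whose ranges overlapped.

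Tbx21, the gene of T-bet, had values of 3.77, 3.85 and 3.59 in EM cells, 2.06, 2.38 and 2.72 in CM cells and -2.32, -1.36 and -2.05 in naive cells, and EM exceeded CM by 1.35 ± 0.23 (SE, adjusted p = 0.000665). No EM library overlapped a CM library. Eomes, which encodes the related factor EOMES, did not pass, with values of 2.05, 1.90 and 2.07 in EM cells, against 1.52, 1.75 and 1.92 in CM cells and a difference of 0.28 (adjusted p = 0.593).

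Memory and stem-like factors passed at shares near those of all genes. Of 19 measured, 1 was higher in EM (5.26%, beside 8.21% of all genes) and 1 lower (5.26%, beside 7.19%), and the median difference was -0.19 (from -0.20 after scaling to a common median to -0.11 without EM replicate 2). Here and below, the values after a median are its lowest and highest under the other settings tried, given where one of them moved it by over 1.5 times or turned its sign. Higher and lower factors numbered 1 and 3 with design-based degrees of freedom and after quantile normalization. They numbered 2 and 4 in the fit of 9 spleen libraries and 2 and 5 in that of 6. Of all genes, 1524, 1528, 1826 and 1719 were lower in these fits. The groups did not overlap for 2 factors on the higher side and 7 on the lower, beside 27.2% and 24.5% of all genes. Tcf7, the gene of TCF1, had values of 5.36, 4.88 and 5.62 in EM cells, 5.41, 5.03 and 4.80 in CM cells and 5.34, 5.71 and 5.57 in naive cells, a difference of 0.20 (adjusted p = 0.66) with overlapping groups. Ets1, which encodes a T-cell identity factor, was higher by 0.41 (adjusted p = 0.0405), and Satb1, which encodes a chromatin organizer, was lower, at a difference of -0.78 (adjusted p = 0.0291). Neither call held in more than 1 of the 6 fits that left out a library: Ets1 was lost without EM replicate 1, EM replicate 2, EM replicate 3, CM replicate 1 and CM replicate 2 (adjusted p up to 0.129) and Satb1 without EM replicate 1, EM replicate 3, CM replicate 1, CM replicate 2 and CM replicate 3 (adjusted p up to 0.0763).

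Genes of homing and tissue exit that passed in the fit used here were all higher in EM, but other fits called some lower. Of 14 measured, 3 were higher (21.4%, beside 8.21% of all genes) and none lower (1 unadjusted), with a median of 0.50. Beside S1pr5, these were Selplg, which encodes the selectin ligand PSGL-1 (difference 0.75, adjusted p = 0.000424), and St3gal1, a sialyltransferase gene (difference 0.72, adjusted p = 0.00619). Fits of 9 or 6 spleen libraries each called 7 higher and 2 lower. With design-based degrees of freedom 5 were higher and 1 lower, and after quantile normalization 6 and 1.

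Of 12 chemokine receptor genes, 4 were higher in EM (33.3%, beside 8.21% of all genes) and none lower (2 unadjusted), with a median of 0.17 (from 0.01 among genes above 0 in at least 3 libraries to 0.33 without EM replicate 3). Cxcr6, a receptor of tissue-resident and liver-homing T cells, differed by 1.13 (adjusted p = 0.00176). Its means were 7.34 in EM, 6.22 in CM and 7.02 in naive cells, so CM cells stood below both other groups. Ccr2 differed by 1.39 (adjusted p = 0.0315), a call lost without EM replicate 1, EM replicate 3, CM replicate 1 and CM replicate 2 (adjusted p up to 0.0962) and in the fit of the 9 spleen libraries (adjusted p = 0.0504). Xcr1 and Ccr8 had negative differences, -1.88 (adjusted p = 0.0591) and -1.18 (adjusted p = 0.164), that did not pass, and both were picked here after their values were seen.

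The integrin and adhesion genes that passed in the fit used here were all higher in EM. Of 18 measured, 6 were higher in EM (33.3%, beside 8.21% of all genes) and none lower (1 unadjusted), with a median of 0.68. Higher and lower genes numbered 9 and 2 in the fit of 9 spleen libraries and 10 and 2 in that of 6. They numbered 10 and 1 with design-based degrees of freedom and 11 and 1 after quantile normalization. Itgb1, which encodes the beta-1 chain of the collagen, laminin and fibronectin receptors (chr8:128685654-128733200, plus strand), had values of 4.67, 4.60 and 4.72 in EM cells, 2.61, 2.81 and 2.95 in CM cells and 1.06, 1.44 and 1.11 in naive cells. The groups were ordered without overlap and the difference was 1.88 ± 0.17 (SE, adjusted p = 5.25e-07). Itga4, its partner chain in VLA-4, had values of 7.43, 7.29 and 7.49 in EM cells, against 5.70, 5.72 and 5.74 in CM cells, a difference of 1.69 ± 0.18 (SE, adjusted p = 4.37e-06). Cd48, an adhesion ligand of the SLAM family, was higher by 1.26 (adjusted p = 0.000964). Itgam, the alpha-M integrin chain of myeloid and activated lymphoid cells, was higher by 1.43 (adjusted p = 0.0318), but this call was lost in each of the 6 fits that left out 1 library (adjusted p up to 0.0744).

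The cytotoxic list was uneven. Of 20 granule and death ligand genes, 4 were higher in EM (20%, beside 8.21% of all genes) and 1 was lower (5%, beside 7.19%), with a median difference of 0.08 (from 0.01 among genes above 0 in at least 3 libraries to 0.15 without CM replicate 3). Gzmk, the gene of granzyme K, had values of 5.21, 4.50 and 5.62 in EM cells, 1.65, 2.01 and 2.39 in CM cells and -1.90, 0.00 and -1.99 in naive cells, a difference of 3.09 ± 0.59 (SE, adjusted p = 0.00148), with no overlap of EM and CM libraries. Fasl, the death ligand gene, was higher by 0.83 (adjusted p = 0.0025), and Rab27a, which encodes a small GTPase of granule release, by 0.75 (adjusted p = 0.0157), and the Rab27a call was lost without EM replicate 1, EM replicate 3 and CM replicate 3 (adjusted p up to 0.0817). The single lower gene was Lamp1, which encodes a lysosomal membrane protein, at a difference of -0.63 (adjusted p = 0.0161), and its call was lost without EM replicate 1, EM replicate 3 and CM replicate 3 (adjusted p up to 0.0837).

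Gzmb and Prf1, the best known cytotoxic genes, did not pass and are given here after their values were seen. Gzmb, the gene of granzyme B, had values of 1.52, 1.11 and 1.63 in EM cells, 0.23, -0.08 and -0.07 in CM cells and -5.45, -3.91 and -5.00 in naive cells. Its EM libraries lay above its CM libraries and both above the naive ones, while the EM and CM means differed by 1.40 ± 0.63 (SE, adjusted p = 0.142). Prf1, the gene of the pore protein perforin, differed by -0.35 (adjusted p = 0.668).

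Of 17 natural killer-type receptor and adaptor genes, 2 were higher in EM (11.8%, beside 8.21% of all genes) and 1 was lower (5.88%, beside 7.19%), both near the background, with a median of 0.32 (from 0.20 without CM replicate 1 to 0.44 without CM replicate 3). Cd226, an activating receptor gene, was higher by 0.80 (adjusted p = 0.0482), and Crtam, a receptor gene of activated CD8+ T cells, by 0.72 (adjusted p = 0.0149). The Cd226 means were 5.15 in EM, 4.36 in CM and 5.04 in naive cells, so CM cells stood below both other groups. Tyrobp, which encodes the adaptor DAP12, was lower, at a difference of -1.46 (adjusted p = 0.0165). None of the 3 calls held in all fits with a library left out: Cd226 was lost without EM replicate 1, EM replicate 3, CM replicate 2 and CM replicate 3 (adjusted p up to 0.155) and without the trend and robust options of limma (0.0516), Crtam without CM replicate 1 (adjusted p up to 0.0568) and Tyrobp without EM replicate 1, EM replicate 3 and CM replicate 3 (adjusted p up to 0.103).

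Of 14 cytokine and chemokine genes, 4 were higher in EM (28.6%, beside 8.21% of all genes) and 1 was lower (7.14%, beside 7.19%), with a median of 0.30. Ccl5, a chemokine gene held ready for release in memory CD8+ T cells, had values of 1.86, 2.08 and 1.72 in EM cells, -0.55, 0.04 and 0.50 in CM cells and -6.14, -5.31 and -6.14 in naive cells, with no overlap between the groups and a difference of 1.89 ± 0.25 (SE, adjusted p = 7.8e-05). Ifng, the interferon gamma gene, had values of 5.64, 6.02 and 5.67 in EM cells, 3.77, 3.97 and 3.95 in CM cells and 2.16, 1.52 and 1.83 in naive cells, a difference of 1.88 ± 0.32 (SE, adjusted p = 0.000565). Tnfsf14, which encodes the ligand LIGHT, was higher by 1.51 (adjusted p = 0.0027). Csf1, the macrophage growth factor gene, was higher by 1.20 (adjusted p = 0.026), a call lost without EM replicate 1, EM replicate 2, EM replicate 3, CM replicate 2 and CM replicate 3 (adjusted p up to 0.0735). The Csf1 means were 16.57 in EM, 15.38 in CM and 16.83 in naive cells, so CM cells stood below both other groups. The lower gene was Tnfsf8, which encodes the CD30 ligand, at a difference of -0.97 (adjusted p = 0.00316).

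Of 26 cytokine receptor genes, 2 were higher in EM (7.69%, beside 8.21% of all genes) and 6 lower (23.1%, beside 7.19%), with a median of -0.09 (from -0.14 without EM replicate 2 to -0.08 without CM replicate 2), and the count of lower genes was 3 without EM replicate 3 and 3 without CM replicate 3. The higher genes were Il15ra, which presents interleukin 15 (difference 1.44, adjusted p = 0.000565), and Il18rap, a chain of the interleukin 18 receptor (difference 1.39, adjusted p = 0.00297). Among the lower genes, Il6st, the signal chain gp130 of the interleukin 6 family, differed by -1.03 (adjusted p = 0.012) and was lost without EM replicate 3 and CM replicate 3 (adjusted p up to 0.0776). Ifngr1, the ligand-binding chain of the interferon gamma receptor, differed by -0.76 (adjusted p = 0.01).

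Of 18 checkpoint and exhaustion genes, 3 were higher in EM (16.7%, beside 8.21% of all genes) and none lower (0 unadjusted), with a median of 0.72. The count was 1 without any EM replicate in turn and 1 without CM replicate 2. Nr4a3, a gene induced by T-cell receptor signals, was higher by 1.15 (adjusted p = 0.00289). The inhibitory receptor genes Tigit (difference 1.45, adjusted p = 0.0409) and Havcr2 (difference 0.91, adjusted p = 0.0414), the gene of TIM-3, were lost in 5 of the 6 fits: Tigit without EM replicate 1, EM replicate 2, EM replicate 3, CM replicate 2 and CM replicate 3 (adjusted p up to 0.125) and in the fit of the 9 spleen libraries (0.0596), and Havcr2 without EM replicate 1, EM replicate 2, EM replicate 3, CM replicate 1 and CM replicate 2 (adjusted p up to 0.171).

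Costimulatory and antigen receptor genes passed about as often as all genes. Of 16 costimulatory receptor genes, 2 were lower in EM (12.5%, beside 7.19%), Cd27 (difference -0.64, adjusted p = 0.0162), a marker of less differentiated memory cells, and Cd6 (difference -0.55, adjusted p = 0.044), an adhesion and signaling receptor gene. Cd27 was lost without EM replicate 3 and CM replicate 3 (adjusted p up to 0.0718) and Cd6 without EM replicate 1, EM replicate 3, CM replicate 2 and CM replicate 3 (adjusted p up to 0.157). Of 24 genes of the T-cell receptor complex and its first signals, 1 was higher (4.17%, beside 8.21% of all genes) and 3 were lower (12.5%, beside 7.19%), with a median of -0.05 (from -0.15 without CM replicate 1 to 0.01 after quantile normalization). Fyn, a Src family kinase gene, was higher by 0.65 (adjusted p = 0.00118). The lower genes were Ptpn6 (difference -0.45, adjusted p = 0.0371), the phosphatase SHP-1, Zap70 (difference -0.38, adjusted p = 0.0158) and Prkcq (difference -0.38, adjusted p = 0.0463), both kinases of receptor signaling. Ptpn6 was lost without EM replicate 1, EM replicate 3, CM replicate 2 and CM replicate 3 (adjusted p up to 0.14), Zap70 without CM replicate 3 (adjusted p up to 0.0567) and Prkcq without EM replicate 1, EM replicate 3, CM replicate 1, CM replicate 2 and CM replicate 3 (adjusted p up to 0.139) and without the trend and robust options (0.0523).

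Among genes that define the sorted lineage, the CD8 and CD3 chains did not pass. Cd8a, the CD8 alpha chain, had values of 9.52, 9.62 and 9.50 in EM cells, against 9.59, 9.79 and 9.95 in CM cells, a difference of -0.23 (adjusted p = 0.268), and Cd3e, a chain of the receptor complex, had values of 2.13, 2.07 and 2.15 in EM cells, against 2.13, 2.34 and 2.50 in CM cells, a difference of -0.21 (adjusted p = 0.419). Because levels in the table are not abundances, presence of a marker cannot be read from them, and a marker at 0 cannot be named.

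Most S100, annexin, galectin and cytoskeletal genes were higher in EM. Of 21 measured, 14 (66.7%, beside 8.21% of all genes) were higher and none lower (0 unadjusted), with a median of 0.68, and 12 to 14 were higher when 1 library was left out. S100a6 had values of -3.15, -3.37 and -3.28 in EM cells, -5.26, -5.15 and -4.93 in CM cells and -9.40, -8.35 and -8.91 in naive cells, a difference of 1.85 ± 0.30 (SE, adjusted p = 0.000393). The galectin genes Lgals1 (difference 1.49, adjusted p = 0.0013) and Lgals3 (difference 1.39, adjusted p = 0.00738), which encode sugar-binding proteins, were also higher. In S100a6 each EM library lay above each CM library and each CM library above each naive one.

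Of 11 Ly6 and Gimap genes, 1 was lower in EM (9.09%, beside 7.19%), Gimap4, a lymphocyte GTPase gene (difference -0.47, adjusted p = 0.0361), a call lost without EM replicate 1, EM replicate 2, CM replicate 1, CM replicate 2 and CM replicate 3 (adjusted p up to 0.12). Of 18 survival and death genes, 2 were higher (11.1%, beside 8.21% of all genes) and 4 lower (22.2%, beside 7.19%), with a median of 0.02 (from -0.03 without EM replicate 2 to 0.05 without CM replicate 3). The count of higher genes was 0 without EM replicate 2, 1 without CM replicate 1 and 1 without CM replicate 2. Bcl2, which encodes the survival protein BCL-2 (chr1:106538178-106714274, minus strand), had values of 6.35, 5.93 and 6.52 in EM cells, 7.62, 7.44 and 7.39 in CM cells and 6.24, 6.59 and 6.24 in naive cells. CM cells stood above both EM and naive cells, and EM was lower than CM, at a difference of -1.22 ± 0.19 (SE, adjusted p = 0.000389). Bbc3, the gene of the death-promoting protein PUMA, was lower too, at a difference of -0.86 (adjusted p = 0.024), a call lost without EM replicate 1, EM replicate 3, CM replicate 2 and CM replicate 3 (adjusted p up to 0.0823). Casp8, an initiator caspase gene, and Bcl2l11, the gene of the death-promoting protein BIM, were lower as well, at differences of -0.76 (adjusted p = 0.00452) and -0.64 (adjusted p = 0.00619). Fas, the death receptor gene, was higher by 1.16 (adjusted p = 0.0149), and Pmaip1, which encodes the BCL-2 family antagonist NOXA, by 1.05 (adjusted p = 0.0312). Fas was lost without EM replicate 2 (adjusted p up to 0.0533) and Pmaip1 without EM replicate 2, CM replicate 1 and CM replicate 2 (adjusted p up to 0.12).

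Cell cycle genes were higher in EM in part. Of 34 measured, 13 (38.2%, beside 8.21% of all genes) were higher and 1, Cdk6, was lower (2.94%, beside 7.19%), with a median of 0.48. The count of higher genes was 5 without EM replicate 3 and 8 without CM replicate 3, and Cdk6, a cyclin-dependent kinase gene at a difference of -0.55 (adjusted p = 0.0469), was lost in each of the 6 fits. Mki67, which encodes the proliferation antigen Ki-67, had values of 5.06, 4.86 and 5.13 in EM cells, 3.72, 3.52 and 3.45 in CM cells and 0.60, 0.94 and 0.79 in naive cells, a difference of 1.46 ± 0.20 (SE, adjusted p = 0.000111). Ccna2, the cyclin A2 gene, was higher by 1.86 (adjusted p = 0.000172) and Hmgb2, a chromatin protein gene, by 1.60 (adjusted p = 0.00105). Tpx2, a spindle gene picked here after its values were seen, was higher by 1.40 (adjusted p = 0.00153). Cdk1, the mitotic kinase gene, was higher by 1.74 (adjusted p = 0.00906), a call lost without EM replicate 3 (adjusted p up to 0.0632) and in the fit of the 9 spleen libraries (0.0536).

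Many interferon-stimulated genes were lower in EM. Of 32 measured, 14 (43.8%, beside 7.19% of all genes) were lower and none higher (1 unadjusted), with a median of -0.54 beside 0.01 for all genes. The groups did not overlap for 26 of the 32 on the lower side, as they did not for 24.5% of all genes, and 11 to 14 genes were lower when 1 library was left out. Ifi44, a cytoplasmic interferon-induced gene (chr3:151730922-151749960, minus strand), had values of 15.97, 16.64 and 15.67 in EM cells, 19.07, 19.47 and 19.79 in CM cells and 17.52, 18.21 and 17.63 in naive cells. EM cells stood below naive cells and CM cells above them, and the difference was -3.35 ± 0.53 (SE, adjusted p = 0.000366).

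Oas2, an enzyme gene of the antiviral RNA sensing pathway, had values of 7.43, 7.91 and 7.23 in EM cells, 10.44, 10.28 and 10.17 in CM cells and 10.57, 10.24 and 10.81 in naive cells, a difference of -2.77 ± 0.42 (SE, adjusted p = 0.000246). Oasl2, a relative of Oas2, was lower, at a difference of -1.53 (adjusted p = 0.00362), and Usp18, a feedback inhibitor gene of interferon signaling, at one of -1.45 (adjusted p = 0.000598). Isg15 and Mx1, chosen here after their values were seen, did not pass, with differences of -0.52 (adjusted p = 0.281) and -0.34 (adjusted p = 0.285).

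About as many ribosomal protein genes were lower in EM as did not pass. Of 69 measured, 35 (50.7%, beside 7.19% of all genes) were lower, none was higher (0 unadjusted), and all 69 had a negative difference in the fit used here, with a median of -0.54. Medians after quantile normalization and after scaling to a common median were -0.44 and -0.55. The groups did not overlap for 56 of the 69 on the lower side, as they did not for 24.5% of all genes. The count was 22 without EM replicate 1, 21 without EM replicate 3, 22 without CM replicate 2 and 21 without CM replicate 3. Rpl10 had values of -2.77, -2.64 and -2.83 in EM cells, -1.48, -1.57 and -1.61 in CM cells and -2.27, -2.44 and -2.14 in naive cells, a difference of -1.19 ± 0.23 (SE, adjusted p = 0.00148). Rpl15 was lower, at a difference of -1.19 (adjusted p = 0.00252), Rpl10a at one of -1.13 (adjusted p = 0.000927) and Rpl13 at one of -1.10 (adjusted p = 0.000281). Ribosomal protein genes have many near-identical pseudogenes, so the share of tags counted for each gene is uncertain.

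**Figure D3:**
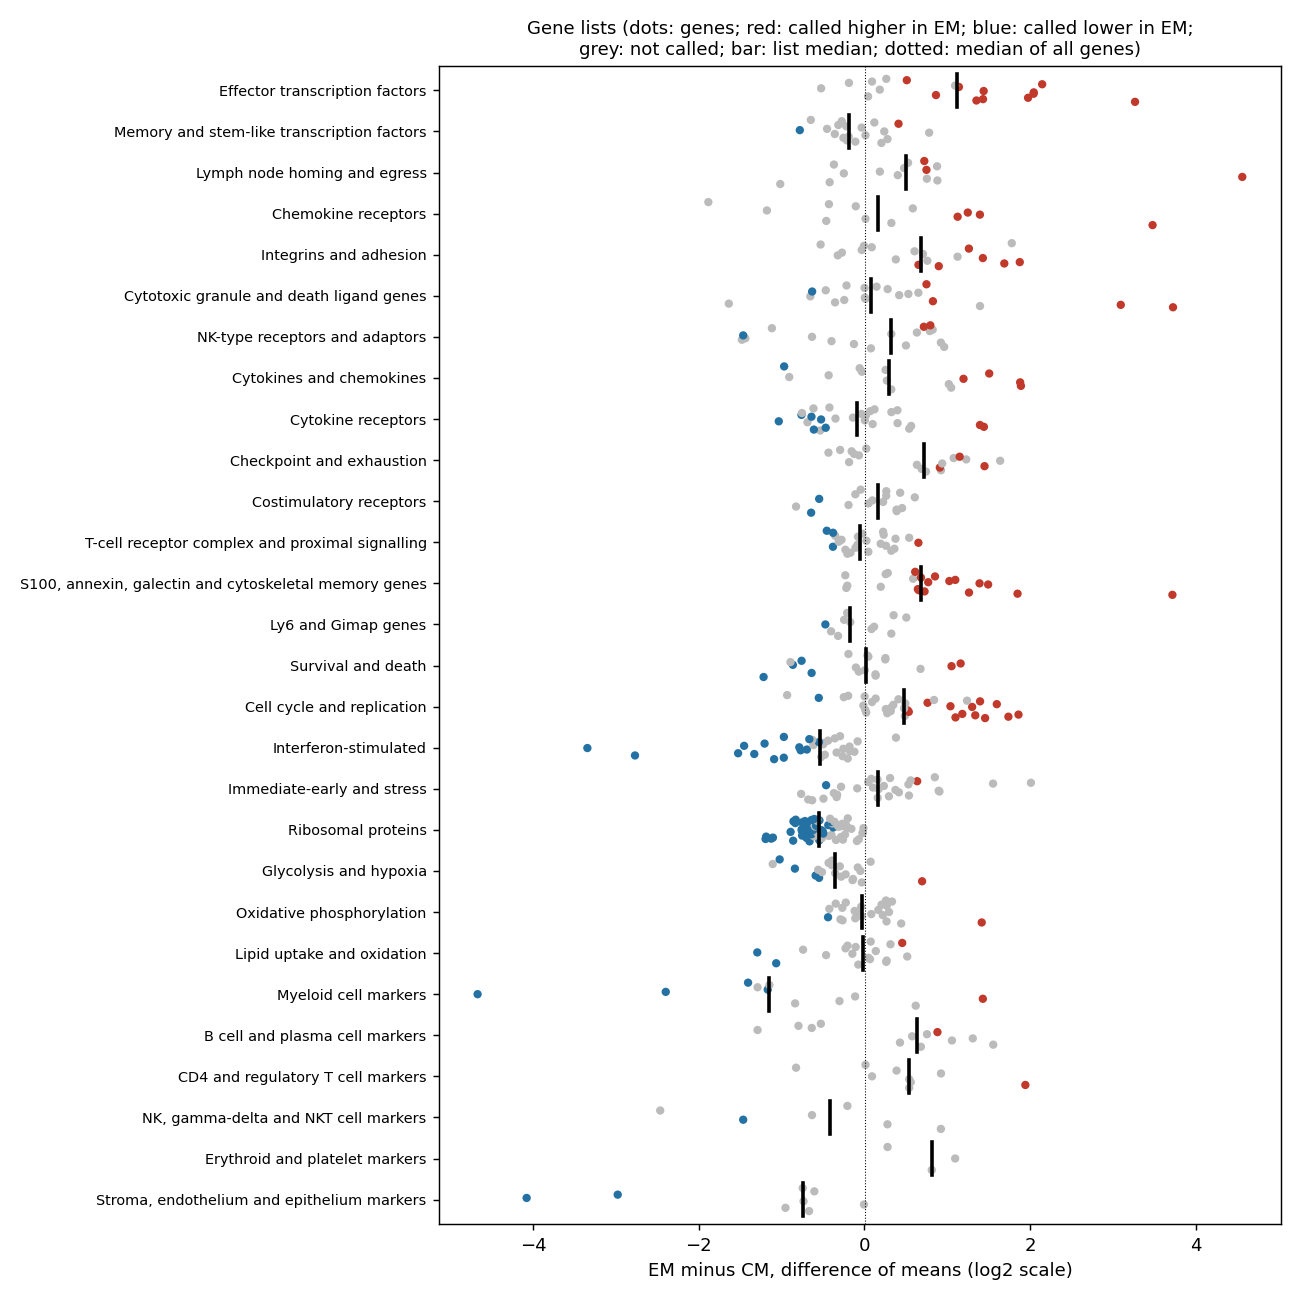
EM minus CM differences (horizontal axis, log2 scale) of the genes in 28 lists (rows); dots are genes, colored by call and direction, and bars are list medians. Effector transcription factors and S100 and annexin genes lie to the right, with 11 of 18 and 14 of 21 genes higher in EM, and interferon-stimulated and ribosomal protein genes lie to the left, with 14 of 32 and 35 of 69 lower.

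Metabolic lists differed from each other. Of 21 glycolysis and hypoxia genes, 1 was higher (4.76%, beside 8.21% of all genes) and 4 lower (19%, beside 7.19%), with a median of -0.35 (from -0.42 without EM replicate 2 to -0.21 without EM replicate 3). The count of lower genes was 2 without EM replicate 1, 7 without EM replicate 2, 2 without EM replicate 3, 2 without CM replicate 1 and 2 without CM replicate 2. It was 10 with design-based degrees of freedom, 8 after quantile normalization, and 9 and 8 in fits of 9 and 6 spleen libraries. Of the 21 differences, 19 were negative in the fit used here. The groups did not overlap for 11 genes on the lower side and 1 on the higher, beside 24.5% and 27.2% of all genes. Slc2a3, a glucose transporter gene, was higher by 0.70 (adjusted p = 0.00938), and Pgam1, a glycolytic enzyme gene, was lower, at a difference of -0.84 (adjusted p = 0.00212). Gpi1, another glycolytic enzyme gene, was lower, at a difference of -0.55 (adjusted p = 0.00677). Bnip3, a hypoxia-induced mitophagy gene, was lower, at a difference of -1.02 (adjusted p = 0.0482) and Pfkl, the liver-type phosphofructokinase gene, at one of -0.59 (adjusted p = 0.0283). Bnip3 was lost without EM replicate 1, EM replicate 3, CM replicate 1, CM replicate 2 and CM replicate 3 (adjusted p up to 0.177) and without the trend and robust options (0.0501), and Pfkl without EM replicate 1, EM replicate 3, CM replicate 1 and CM replicate 2 (adjusted p up to 0.115).

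Of 23 nuclear genes of oxidative phosphorylation, 1 was higher (4.35%, beside 8.21% of all genes), Ndufa4 (difference 1.42, adjusted p = 0.00241), a respiratory chain subunit gene, and 1 was lower (4.35%, beside 7.19%), Ndufv1 (difference -0.44, adjusted p = 0.0479), a complex I subunit gene. The Ndufv1 call was lost without EM replicate 1, EM replicate 3, CM replicate 1, CM replicate 2 and CM replicate 3 (adjusted p up to 0.156) and without the trend and robust options (0.0531). Of 18 lipid genes, 1 was higher (5.56%, beside 8.21% of all genes), Etfa (difference 0.46, adjusted p = 0.0316), an electron carrier subunit gene, and 2 were lower (11.1%, beside 7.19%), Fabp5 (difference -1.29, adjusted p = 0.0296), a fatty acid binding protein gene, and Cpt2 (difference -1.07, adjusted p = 0.0171), which acts in mitochondrial fatty acid import. Etfa was lost without EM replicate 1, EM replicate 3, CM replicate 2 and CM replicate 3 (adjusted p up to 0.109), Fabp5 without EM replicate 1, EM replicate 3, CM replicate 1, CM replicate 2 and CM replicate 3 (adjusted p up to 0.119) and Cpt2 without EM replicate 3 (adjusted p up to 0.0533).

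Immediate-early and stress genes, which rise during cell handling as well as on activation, passed in 2 of 30 cases, 1 in each direction (3.33%, beside 8.21% of all genes higher and 7.19% lower). Hsp90aa1, a chaperone gene, was higher by 0.64 (adjusted p = 0.0088), and Btg1, an antiproliferative gene, was lower, at a difference of -0.46 (adjusted p = 0.0117), a call lost without EM replicate 3 (adjusted p up to 0.0518). The list median was 0.17 (from -0.06 without EM replicate 2 to 0.28 without EM replicate 3).

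The genes with the largest differences in favor of CM included genes known from macrophages, milk-secreting cells and epithelium. C1qb, a complement chain gene of macrophages, had values of -20.53, -17.45 and -21.87 in EM cells, -16.46, -15.14 and -14.24 in CM cells and -16.14, -16.42 and -15.64 in naive cells, a difference of -4.67 ± 0.90 (SE, adjusted p = 0.00152). Csn3, a milk casein gene, had values of 3.80, 5.07 and 3.38 in EM cells, against 7.45, 8.54 and 9.27 in CM cells, a difference of -4.34 (adjusted p = 0.000419). Krt8, an epithelial keratin gene, had values of 3.40, 4.02 and 3.24 in EM cells, 6.48, 7.73 and 8.69 in CM cells and 5.21, 7.16 and 5.09 in naive cells, a difference of -4.08 ± 0.63 (SE, adjusted p = 0.000314). Each CM library exceeded each EM library in all 3 genes.

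The remaining 7 were Tbx15 (difference -3.98, adjusted p = 0.00012), a T-box factor gene of mesenchymal development, Dsg2 (difference -3.93, adjusted p = 0.00098), a desmosomal cadherin gene, Spp1 (difference -3.80, adjusted p = 0.00141), the osteopontin gene, Thrsp (difference -3.69, adjusted p = 0.00376), a gene of lipid synthesis, Igfbp5 (difference -3.58, adjusted p = 0.00492), an insulin-like growth factor binding protein gene, Ltbp3 (difference -3.46, adjusted p = 0.000617), which helps to secrete TGF-beta, and Nuak2 (difference -3.39, adjusted p = 0.000703), a stress kinase gene. All 10 kept their calls when any 1 of the 6 libraries was left out.

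Markers of other cell types were set beside these values. The summed level of a list was taken as its mean over genes, each centred on the 9 spleen libraries. For 11 myeloid markers it was -0.85, 0.34 and -1.35 in EM cells, 0.03, 0.45 and 0.74 in CM cells and 0.19, -0.06 and 0.52 in naive cells, and EM replicate 2 stood apart from the other EM libraries. Of the 11, 1 was higher in EM (9.09%, beside 8.21% of all genes) and 4 were lower (36.4%, beside 7.19%), with a median of -1.15 (from -1.50 without EM replicate 2 to -0.53 without EM replicate 3); the count of lower genes was 2 without EM replicate 1, 7 without EM replicate 2, 2 without EM replicate 3 and 2 without CM replicate 3. The lower genes were C1qb, C1qc (difference -2.40, adjusted p = 0.015), Ctss (difference -1.40, adjusted p = 0.00125), a lysosomal protease gene, and Apoe (difference -1.17, adjusted p = 0.0318), the apolipoprotein E gene, picked here after its values were seen. The call of C1qc was lost without EM replicate 1, EM replicate 3 and CM replicate 3 (adjusted p up to 0.1) and that of Apoe without EM replicate 1, EM replicate 3, CM replicate 2 and CM replicate 3 (adjusted p up to 0.154). The single higher one was Itgam, described above.

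For 8 markers of stroma, endothelium and epithelium the level was -0.77 to -0.71 in EM cells, 0.30 to 0.91 in CM cells and -0.20 to 0.74 in naive cells. EM lay below both other groups. Of these 8, the keratin genes Krt8 and Krt18 (difference -2.98, adjusted p = 0.0029) were lower in EM (25%, beside 7.19%), and the median was -0.74. For 12 B cell and plasma cell markers the level was 0.16, 1.07 and -0.26 in EM cells, -0.35, 0.02 and 0.30 in CM cells and -0.61, -0.20 and -0.14 in naive cells. Ighm, the immunoglobulin M heavy chain gene, was higher by 0.88 (adjusted p = 0.038), a call lost in each of the 6 fits that left out 1 library (adjusted p up to 0.0981).

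For 9 CD4 and regulatory T cell markers the level was 0.47 to 0.74 in EM cells, -0.11 to 0.32 in CM cells and -0.79 to -0.59 in naive cells. Foxp3, the regulatory T cell factor gene, had values of 24.70, 25.25 and 24.48 in EM cells, 23.07, 22.88 and 22.67 in CM cells and 24.63, 24.14 and 24.87 in naive cells, a difference of 1.94 ± 0.52 (SE, adjusted p = 0.0144), while Cd4 itself differed by 0.54 (adjusted p = 0.449). For 6 natural killer, gamma-delta and NKT cell markers the level was 0.21 to 0.45 in EM cells, 0.75 to 1.13 in CM cells and -1.61 to -0.85 in naive cells. Tyrobp, lower in EM, was the only one of them called (16.7%, beside 7.19% of all genes). Of 3 erythroid and platelet markers none was called by limma at an adjusted p below 0.05 and none at an unadjusted p below 0.05, with differences of 1.10 (adjusted p = 0.276) for Alas2 and 0.81 (adjusted p = 0.653) for Hba-a2, although Alas2 passed in fits of 9 or 6 spleen libraries (0.0231 and 0.00132). The part of other cell types in any difference above was not tested.

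The tumor libraries place the EM values on a wider scale. They hold CD103+CD69+ cells (13 libraries), CD103-CD69+ cells (11) and CD103-CD69- cells (10), the first being the phenotype of tissue-resident memory. Zeb2 ran from 11.13 to 12.57, from 10.56 to 12.06 and from 11.06 to 12.00 in these 3 subsets, all below the lowest EM library and overlapping the CM range. Cx3cr1 ran from 15.76 to 17.94, from 16.97 to 18.36 and from 15.98 to 18.33, likewise below every EM library.

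S1pr5 ran from -2.86 to 1.91 in CD103+CD69+ cells, from -3.75 to 0.42 in CD103-CD69+ cells and from 0.69 to 2.98 in CD103-CD69- cells. No tumor library reached the lowest EM value of 3.97 in S1pr5. Gzma, S100a4 and Hist1h2bf behaved otherwise. Gzma ran from -6.17 to -3.03, from -6.26 to -3.25 and from -6.79 to -5.05 in the same order of subsets. S100a4 ran from -2.65 to -0.05, from -0.87 to 0.04 and from -1.74 to -0.39. In both genes some CD103+CD69+ and CD103-CD69+ libraries reached the lowest EM value, while no CD103-CD69- library did. Hist1h2bf ran from -17.66 to -16.50, from -17.89 to -16.67 and from -17.90 to -16.44, around the EM values and far above the CM and naive ones. These ranges are a description, with no test between spleen and tumor.

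**Figure D4:**
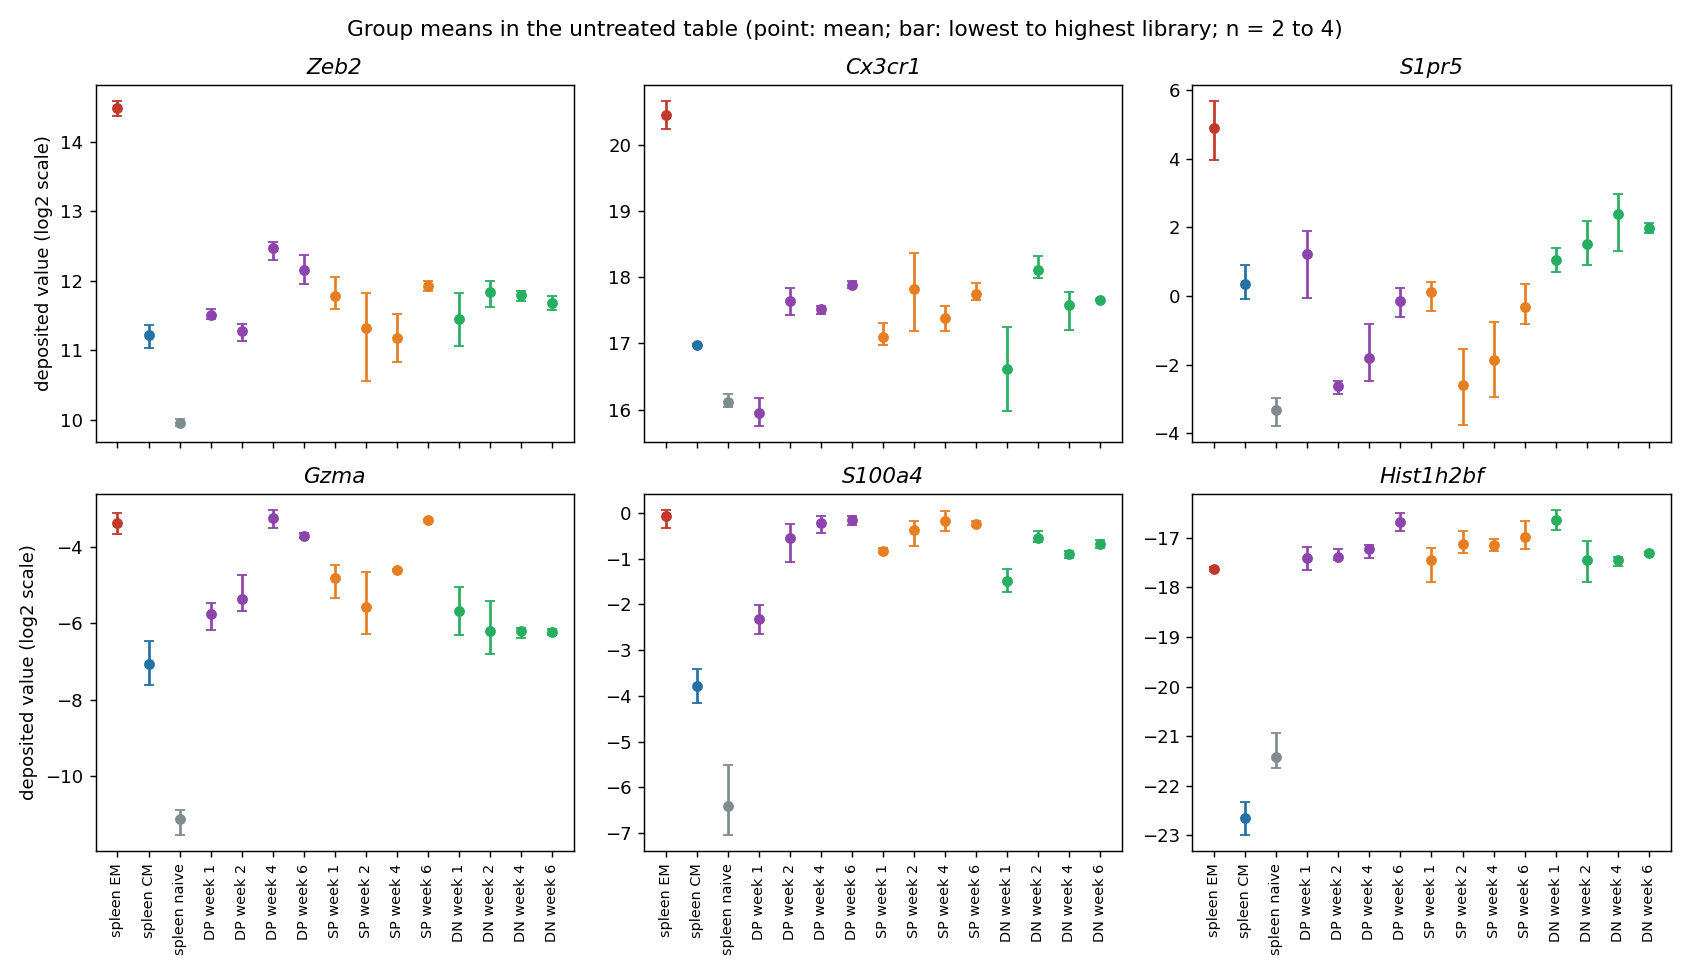
Group means of 6 genes in the 15 groups of the untreated table (horizontal axis: spleen EM, CM and naive, then tumor CD103+CD69+ (DP), CD103-CD69+ (SP) and CD103-CD69- (DN) cells by week); vertical axes give the deposited log2 value and bars run from the lowest to the highest library. Zeb2, Cx3cr1 and S1pr5 are highest in spleen EM, while Hist1h2bf in spleen EM lies near the tumor groups and above CM and naive cells. For Gzma and S100a4, some DP and SP libraries reach the spleen EM range.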

How the data were processed

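FACS-purified CD8+ T cells gave 10 ng of RNA per library for QuantSeq 3' mRNA-Seq FWD preparation and 75 bp single-end sequencing, per the labels' protocols. The submitters' processing notes name HISAT2, HTSeq and mm10, with no versions. The deposited table of 43 untreated libraries holds normalized values from the authors, taken here as log2; the base and the method are not given in the sources used here, so depth, counting intervals and the strand setting are unknown. The second table, of treated samples, was not used. No value column lacked a sample.

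The EM minus CM contrast was fitted with limma 3.58.1 (R 4.3.3, trend and robust options, statmod 1.5.0) over all 43 libraries in 15 groups, with Benjamini-Hochberg adjustment over 10560 genes and a threshold of 0.05. No filter on low values was used, because levels in the table are not abundances. The residuals of the table had rank 18 where the design leaves 28 degrees of freedom, so the residual degrees of freedom were multiplied, and the variances divided, by 0.643. Of the variation within EM and CM, 99.2% lay in 2 of 4 directions, so fits of the spleen libraries alone overstate their degrees of freedom.

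Named genes were 11 fixed markers, the 10 largest called differences in each direction, and up to 4 called genes of each of 28 lists (2 by size where none was called). Of the fixed markers, Klrg1 was not among the genes measured. Some genes named by this rule are not reported here. Members and lists were chosen with earlier results of these data known, and genes may stand in several lists. Genes outside this rule were chosen after their values were seen: Gzmb, Prf1, Xcr1, Ccr8, Tpx2, Apoe, Isg15, Mx1, Cd8a, Cd3e, Cd4, Lamp1, Tnfsf8, Casp8, Bcl2l11, Gpi1 and Cdk6. Positions are from GENCODE M21 (9888 of 10560 symbols matched) and promoters from RefSeq. Alternatives were other degrees of freedom, fewer libraries, blocks, scalings, a filter, limma without its options and each library left out. Tables and figures used Python 3.11.15, pandas 2.3.3 and matplotlib 3.10.9.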

Additional observations from a re-analysis of the deposited data

How the results depend on the processing

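The main count of 1626 genes called became 3166 with design-based degrees of freedom, 3830 with the 9 spleen libraries only, 3696 with the 6 EM and CM libraries only and 3239 after quantile normalization, which restored residual rank 28 and so took no reduction by construction. It was 641 when an absolute difference above 1 was also asked, and 780 to 1979 when 1 library was left out in turn. It stayed within 1.5 times after scaling to a common median (1802), with values above 0 in at least 3 libraries (1531, with 85 of the 95 named genes tested) and without the trend and robust options (1608). With the replicate number as a block, 1743 genes were called, and with the run of library codes as a block, 1665. Of 95 named genes called, all 95 were called under either block. The numbers were not taken as pairs, because the match between same-numbered libraries varied. Deviations of same-numbered EM and CM libraries from their group means correlated at 0.422, 0.707 and -0.507 over genes. Among these pairs, only the libraries numbered 2 were each the best match of the other. EM replicate 3 and CM replicate 1 were also each the best match of the other (0.557). Deviations of EM and CM libraries from the same run of codes correlated at -0.745, -0.534 and -0.507. No named gene changed direction under any alternative run. Of those 95 genes, 63 kept their calls in all 6 fits that left out a library and 32 lost it in at least 1; the cause was not tested. Depth is unknown, so no limit of detection can be given. No named difference that was called moved by over 1.5 times, other than that of Fabp5, which was -0.79 after quantile normalization.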

Other observations

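Transcripts of the mitochondrial genome, a group taken up after its values were seen, were lower in EM cells. Of 11 mitochondrially encoded genes in the table, 10 were lower (7.19% of all genes were) and none was higher, and all 11 differences were negative, with a median difference of -1.46, and 9 to 11 were lower when 1 library was left out. Rnr2 of the mitochondrion (mt-Rnr2), a ribosomal RNA gene, had values of 5.41, 5.69 and 5.36 in EM cells, against 7.07, 6.80 and 6.49 in CM cells, a difference of -1.30 ± 0.24 (SE, adjusted p = 0.000994) by limma. The complex I gene mt-Nd2 had values of 10.33, 9.97 and 10.51 in EM cells, 12.10, 11.68 and 11.39 in CM cells and 10.92, 10.77 and 10.96 in naive cells. Its EM libraries lay below its CM libraries, and the difference was -1.46 ± 0.19 (SE, adjusted p = 7.8e-05). Of 23 nuclear genes of oxidative phosphorylation, 1 was higher and 1 lower, as given above. The cytochrome oxidase gene mt-Co1 averaged 8.03 in EM cells, 9.51 in CM cells and 8.81 in naive cells.

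Histone genes, also taken up after their values were seen, did not all follow Hist1h2bf. Of 38 in the table, 5 were higher in EM and 2 lower, where 8.21% and 7.19% of all genes were. The count of higher genes was 4 to 6 when 1 library was left out. That of lower genes ran from 0 (without EM replicate 3) to 3 (without EM replicate 2 or CM replicate 1). It was 1 without EM replicate 1, CM replicate 2 or CM replicate 3. Higher and lower genes numbered 16 and 4 after quantile normalization and 11 and 3 with design-based degrees of freedom. They numbered 12 and 3 in the fit of the 9 spleen libraries and 9 and 2 in that of the 6 EM and CM libraries. Among the 10 histone genes with values above 0 in at least 3 libraries, none was called. Hist1h1b, a linker histone gene, was higher by 2.77 (adjusted p = 0.000481) and Hist1h3d, a histone H3 gene, by 2.17 (adjusted p = 0.000283), while Hist1h3e, another H3 gene, was lower, at a difference of -1.99 (adjusted p = 0.01). Near-identical copies make these assignments uncertain.

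Among genes not named in the comparison, the smallest adjusted p belonged to Tbc1d16, a Rab GTPase activating protein gene, with values of 4.80, 5.22 and 4.56 in EM cells, against 7.27, 7.54 and 7.78 in CM cells and a difference of -2.67 ± 0.21 (SE, adjusted p = 1.02e-07) by limma. Lamc1, the laminin gamma-1 chain gene, had values of 20.04, 19.44 and 20.38 in EM cells, against 16.98, 16.84 and 16.71 in CM cells, a difference of 3.11 ± 0.30 (SE, adjusted p = 1.27e-06). Skil and Pmepa1, both regulators of TGF-beta signaling, were lower in EM, with differences of -1.04 (adjusted p = 6.1e-06) and -2.10 (adjusted p = 3.72e-05). The bicarbonate transporter gene Slc4a7 was higher by 1.27 (adjusted p = 5.5e-06), with values of 6.92, 6.90 and 6.96 in EM cells, against 5.64, 5.66 and 5.67 in CM cells. These genes were picked by their p-values, and each kept its call when any 1 of the 6 libraries was left out (adjusted p at most 0.000234).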
